A study of Mus musculus with 4 samples.

Results

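Lymphatic endothelial cells of the mouse submandibular gland were examined in single-cell RNA sequencing of gland stroma taken 14 days after duct ligation or mock surgery. A cell was counted as lymphatic when its transcripts, counted as unique molecular identifiers (UMIs), for Prox1, Mmrn1, Flt4, Lyve1 and Ccl21a summed to at least 4, with at least 1 for Prox1 or Mmrn1. It also had to hold no UMI of the leukocyte gene Ptprc and at most 2 of the macrophage genes C1qa, C1qb and C1qc. The rule found 64 of the 39843 cells left after removing those with fewer than 500 UMIs, fewer than 300 genes or over 15% mitochondrial UMIs. Ligated tissue supplied 35 of them, and the mock libraries 1, 2 and 3 supplied 6, 11 and 12. Since these 5 genes chose the cells, their levels are a description and were not tested.

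Lymphatic vessels take up fluid, macromolecules and leukocytes from tissue through blind-ended initial capillaries and pass them into collecting vessels with valves. Their endothelium is set apart from blood endothelium by the transcription factor Prox1 and depends on VEGF-C signalling through the receptor Flt4 (VEGFR3). Initial capillaries carry the hyaluronan receptor Lyve1 and release Ccl21, the chemokine that draws Ccr7-bearing dendritic cells and T cells into the vessel, while valve cells rely on Foxc2 and other factors that respond to flow.

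All mice were female and of strain C57BL6/J. In the ligated group (1 library) a metal clip was left for 14 days on the main ducts, those of both the submandibular and the sublingual gland. In the mock group (3 libraries) the ducts were exposed and left unclipped. Every library came from dissociated glands after removal of EpCAM-bearing epithelial cells and Ter119-bearing red cells with beads and removal of dead cells, so shares of cells also carry what dissociation and depletion left. The labels do not say whether libraries came from separate or pooled animals, so the p-values describe how far these samples spread, and that spread may be technical.

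Library totals ran from 29897488 UMIs in mock 1 to 80187555 in the ligated library. The summed lymphatic members held 307854 UMIs after ligation, and 72820, 72191 and 63717 in mock 1, 2 and 3. The median member held 6164 UMIs after ligation, and 5190.5, 5964 and 5190 in the mock libraries in the same order. In mock 1, 1 cell of 40150 UMIs supplied 55.1% of the summed UMIs, so mock 1 levels rest mostly on that cell. Between 44 and 123 barcodes of each library also occurred in another library, and 3 members, 1 in mock 2 and 2 in mock 3, carried such a barcode. File headers name one software version for the ligated library and mock 1 and another for mock 2 and mock 3, and genes whose levels split along that line are described separately.

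Of the 10 lymphatic markers listed, 5 are the rule genes, so their summed level describes the choice of cells. It was 24888, 41417, 37456 and 14611 CPM (UMIs of a gene per 1000000 UMIs of the sum) in the ligated library and mock 1, 2 and 3. Where 4 values follow each other below, they keep this order. Outside the rule, Pdpn, Reln, Nr2f2, Fgl2 and Nts were each detected in members. Blood endothelium was limited by its own rule to at most 1 rule-gene UMI a cell, with Prox1 and Mmrn1 at 0, so the full marker list is not compared between both types. Markers of endothelium of any kind took 4975 to 6220 CPM in the members and 6843 to 7536 CPM in blood endothelium. Pecam1 and Cdh5 are among these markers, and the rule for blood endothelium required a UMI of them, so this difference partly follows from that rule.

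Cells near the threshold looked different from the rest. Of the 13 members with 4 to 7 rule-gene UMIs, 11 held at least 5 UMIs of Flt1, the VEGF-A receptor that marks blood endothelium, 1 held Ccl21a and 1 held Reln. Just outside the threshold, 13 of the 15 cells with 3 rule-gene UMIs held at least 5 Flt1 UMIs and none held Ccl21a. Among the 51 members with at least 8 rule-gene UMIs, 2 held that much Flt1, 49 held Ccl21a and 45 held Reln. Ccl21a is part of the sum that split these cells, so its counts follow from the split. Flt1 and Reln are not in that sum. The low-count members thus mostly carried Flt1 beside a few lymphatic transcripts, and tests below are also given over the 51 cells with at least 8 rule-gene UMIs (29, 4, 10 and 8 in the ligated library and mock 1, 2 and 3).

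**Figure D1:**
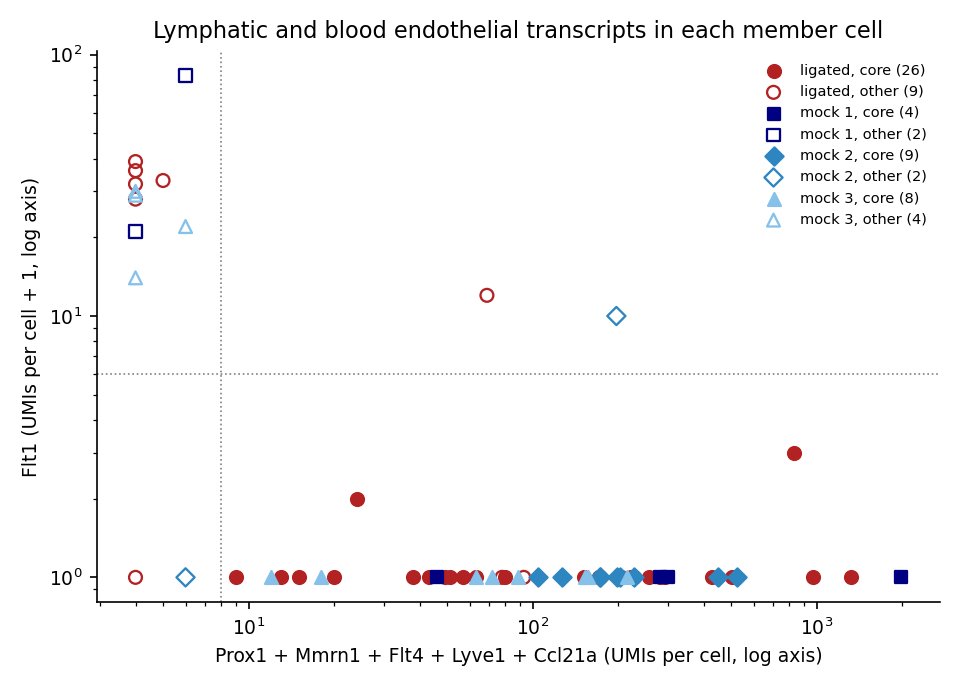
Each point is 1 member cell, with the summed UMIs of the 5 rule genes on the horizontal axis and Flt1 UMIs plus 1 on the vertical axis, both logarithmic. Colours and shapes give the library, filled points are core members, and dotted lines mark 8 rule-gene UMIs and 5 Flt1 UMIs; most cells left of the vertical line lie above the horizontal one, and all but 2 right of it lie below.

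Blood endothelial markers took 3914, 7416, 2299 and 7580 CPM in the members, against 15615 to 21174 CPM in blood endothelium. Flt1, Plvap, Emcn and Ptprb are among these markers and chose the blood endothelial cells, so this gap partly follows from that choice. Fibroblast markers were uneven: 2 ligated members held 377 and 368 UMIs of 8 fibroblast markers, and the summed members held 775, 1, 0 and 0. One mock 1 member held 160 of that library's 172 erythroid marker UMIs. Of 10 epithelial markers, 7, Epcam among them, had no UMI in any member, and the whole list gave 18, 0, 4 and 5 UMIs. A core of 47 members (26, 4, 9 and 8 per library) with at least 8 rule-gene UMIs, under 5 Flt1 UMIs and under 1% of UMIs from each of the fibroblast, mural, epithelial, glial and erythroid marker lists was therefore followed beside the whole set. In the core, blood endothelial markers took 1212 to 2067 CPM and fibroblast markers 22, 1, 0 and 0 UMIs. Both follow in part from the Flt1 and fibroblast limits that chose the core. The mock 1 core rests on 4 cells, of which 1 holds 74.6% of its UMIs.

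Among the rule genes, Prox1 (chr1:190118035-190170714, GRCm38/mm10, minus strand), the master factor of lymphatic fate, read 851, 467, 596 and 691 CPM. Mmrn1 (chr6:60924976-60989378), which encodes the secreted protein multimerin 1, read 2310, 6248, 3006 and 1569 CPM. Flt4 (chr11:49609263-49652739) read 624, 1126, 803 and 439 CPM. For Mmrn1 and Flt4 the ligated library lay inside the mock range, mock 1 was highest and mock 3 lowest, while for Prox1 the ligated library lay above all 3 mock libraries.

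Lyve1 (chr7:110850607-110863239) read 1104 CPM in the ligated library and 3227, 2826 and 1177 CPM in mock 1, 2 and 3. Ccl21a (chr4:42772860-42773993) read 17060 CPM in the ligated library and 24911, 25723 and 8616 CPM in the mock libraries. The ligated library was thus lowest for Lyve1, though close to mock 3, and inside the mock range for Ccl21a. Pooled over libraries, 57.8% of members held a Lyve1 UMI and 78.1% a Ccl21a UMI. Cells that should lack these genes gave far smaller shares: 0.0109% and 0.256% of blood endothelial cells (median 3248 to 4960.5 UMIs) and 0.0661% and 1.12% of lymphocytes (median 4813 to 6600.5 UMIs), the blood endothelial shares being limited by the rule for those cells.

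Lymphatic members were set against the blood endothelium of the same libraries, 18384 cells that met the same Ptprc and C1q limits and held at least 4 UMIs over Flt1, Plvap, Emcn and Ptprb (1 or more of Flt1 or Ptprb). They also held Pecam1 or Cdh5, no Prox1 or Mmrn1, and at most 1 UMI over the 5 lymphatic rule genes. Genes of either rule were left untested. Of 11396 genes tested with edgeR's quasi-likelihood test on sums per library, with the library as a block, 593 (5.2%) were higher in lymphatic members and 768 (6.74%) lower at a Benjamini-Hochberg adjusted p under 0.05. Over the 51 cells with at least 8 rule-gene UMIs the counts were 664 (5.85%) and 1056 (9.31%) of 11344 genes, and 577 of the 593 higher genes and 735 of the 768 lower ones were called again. The all-gene median was -0.20 over all members and -0.24 over the 51 cells. List counts below stand beside these shares and medians, and small counts near them are not read as a result about a list.

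Of 24 lymphatic identity genes outside the rule, 22 were higher in the members and 1, Sox18, was lower; the list's median difference was 4.02 on the log2 scale, beside -0.20 over all genes tested. Reln (chr5:21884454-22344702), which encodes the secreted glycoprotein reelin, read 529, 1579, 1662 and 910 CPM in the members and 1.37, 0.0794, 0.0838 and 0.455 CPM in blood endothelium. The groups did not overlap, and the difference was 10.92 ± 0.34 (log2, SE, n = 4 libraries; edgeR adjusted p = 2.3e-75). A Reln UMI was found in 71.9% of members, 0.0762% of blood endothelial cells and 0.0992% of lymphocytes.

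Pdpn, the podoplanin that binds platelet Clec2 and keeps blood out of lymphatics, read 166, 275, 346 and 62.8 CPM in the members against 7.89, 1.03, 1.34 and 0.63 CPM in blood endothelium. Tbx1, a T-box factor needed for lymphatic growth, read 146, 68.7, 222 and 173 CPM against at most 0.261 CPM. Nts, the neurotensin precursor, was less even, at 253, 27.5, 582 and 330 CPM, and 31.2% of members held it. All 3 were higher in the members of every library, by 6.32 ± 0.41, 9.82 ± 0.61 and 9.01 ± 0.45 on the log2 scale (edgeR adjusted p = 3.7e-33, 5.6e-35 and 8.3e-46).

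Other identity genes lay nearer to blood endothelium. Stab1, a scavenger receptor, read 812, 577, 554 and 487 CPM against 98, 41.3, 40.5 and 40.5 CPM. Nr2f2, the venous and lymphatic factor COUP-TFII that partners Prox1, read 406, 838, 748 and 298 CPM against 71.5 to 79.4 CPM. Nrp2, the VEGF-C co-receptor, read 442, 563, 790 and 235 CPM against 212, 151, 186 and 174 CPM. Each was higher in all 4 libraries, by 3.33 ± 0.23, 2.62 ± 0.23 and 1.22 ± 0.22 (log2; edgeR adjusted p = 1e-30, 2.1e-21 and 3.3e-06).

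Secreted and surface proteins filled much of the remaining list. Fgl2, a fibrinogen-like immunoregulatory protein, was higher by 7.14 ± 0.27, Fxyd6, a regulator of the sodium pump, by 7.02 ± 0.29, and Thy1, an adhesion glycoprotein, by 5.71 ± 0.30 (log2, edgeR adjusted p = 7.1e-64, 3.4e-57 and 1.7e-43). Fgl2 and Thy1 are also lymphocyte genes, found in 49.2% and 39.6% of lymphocytes here, and 76.6% and 70.3% of members held them although every member lacked Ptprc. Sox18, which switches on Prox1 in the embryo, read 78, 82.4, 582 and 518 CPM against 135, 146, 964 and 905 CPM. Sox18 was lower in the members of each library (-0.99 ± 0.23, edgeR adjusted p = 0.00046), and in both cell types its level was low in the ligated library and mock 1 and high in mock 2 and 3. Hoxd8 did not pass (0.06 ± 0.36, adjusted p = 0.96 by edgeR).

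**Figure D2:**
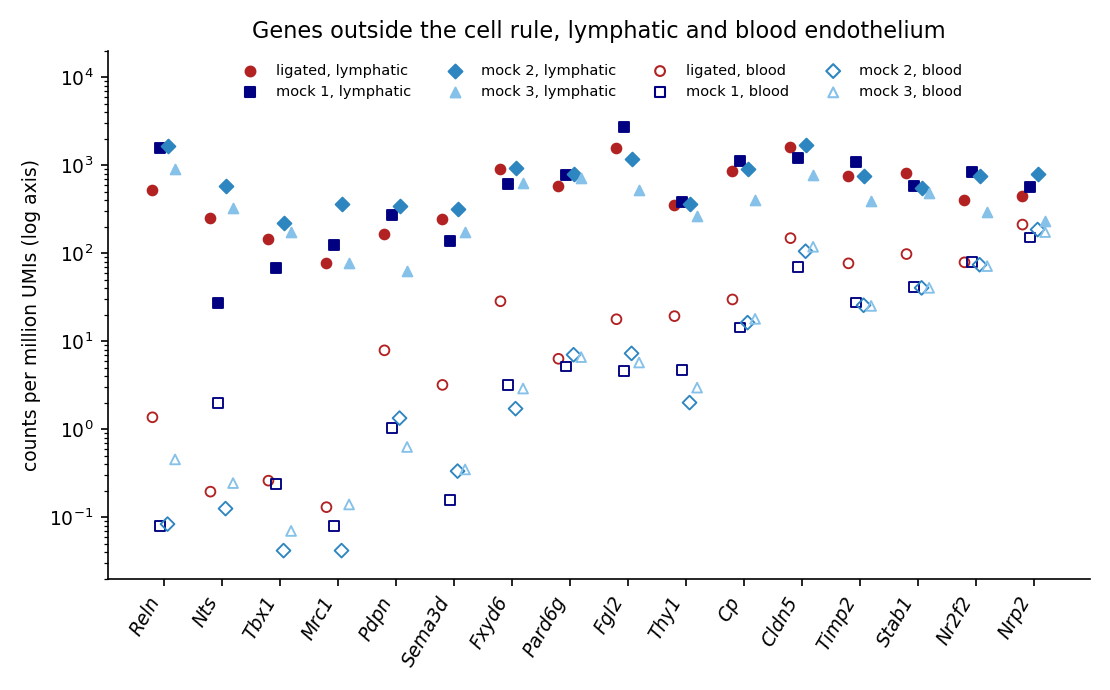
Points are CPM on a log axis for 16 genes outside the cell rule, with filled symbols for lymphatic members and open symbols for blood endothelium of the same library. Reln, Nts, Tbx1 and Mrc1 lie at or below 1.99 CPM in blood endothelium, whereas Nrp2 and Nr2f2 differ much less.

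Outside the lists, the genes with the largest differences were Gm21541, 1810008I18Rik, Sh3gl3, Tnfaip8l3, Slc38a4, Slc45a3, Lcn2, Dtx1 and Apba2. Gm21541 read 104, 2238, 180 and 31.4 CPM and had no UMI in blood endothelium, at least 10890-fold higher against a floor of 3 UMIs over that group. Its transcript differs from that of Ccl21a at 6 of 870 bases, so reads may be split between the copies and its level is uncertain. Ccl21a is a rule gene limited in blood endothelium, so the Gm21541 difference may not be independent of the choice of cells. Sh3gl3, an endophilin, read 110, 151, 180 and 173 CPM against at most 0.159 CPM (10.75 ± 0.68 on the log2 scale, edgeR adjusted p = 3.1e-34). Lcn2, which encodes the iron-siderophore carrier lipocalin 2, read 250, 1469, 859 and 220 CPM against 1.83, 0.874, 0.586 and 0.21 CPM. Both were higher in all 4 libraries, Lcn2 by 9.22 ± 0.34 (edgeR adjusted p = 1e-65).

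At the other end, 12 genes of blood endothelium had no UMI in any member: Mpped2, Nebl, Enpp6, Trim65, Cldn15, Cytl1, Npnt, Lbx2, Stk17b, Aqp7, Gja5 and Art3. Gja5 is the arterial connexin 40 and Aqp7 a glycerol channel of capillaries. With 516582 member UMIs in all, a count of 0 allows up to 5.81 CPM, so the 12 genes were at least 1.69-fold (Npnt) to at least 6.13-fold (Mpped2) lower, the bounds being set by depth. Aqp7 did not keep its call without mock 1 (adjusted p = 0.054) or mock 2 (0.053), and 9 of the others lost theirs without the ligated library, with edgeR adjusted p between 0.052 and 0.44.

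VEGF-C receptors and their partners split between the cell types. Of 14 tested genes of the VEGF-C axis, 4 were higher and 3 lower, with a median of -0.08. Itga9, the integrin chain needed for valve leaflets, read 123, 192, 277 and 94.2 CPM against 30.9 to 40.2 CPM (1.99 ± 0.30, edgeR adjusted p = 8.4e-09). Kdr (VEGFR2) read 809, 1634, 443 and 989 CPM against 1418, 2899, 1622 and 1491 CPM, and Nrp1, the VEGF-A co-receptor, 218, 563, 69.3 and 455 CPM against 953 to 1670 CPM. Both were lower in every library, by -1.19 ± 0.19 and -2.22 ± 0.22 (edgeR adjusted p = 8e-08 and 3.9e-17). Nrp1 was lower still over cells with at least 8 rule-gene UMIs (-5.13 ± 0.32, edgeR adjusted p = 8.8e-55). Vegfc itself, the ligand, was lower in members (-2.16 ± 0.43, edgeR adjusted p = 2.3e-05).

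Of 12 angiopoietin, Tie and adrenomedullin genes, 2 were higher and 2 lower (median -0.09), beside 5.2% and 6.74% of all genes tested. Angpt2, which acts on Tie2 in lymphatic remodelling, read 185, 27.5, 97 and 94.2 CPM against 4.92 to 6.87 CPM, and was higher by 3.91 ± 0.43 (log2, edgeR adjusted p = 1.4e-14). Adm, the peptide adrenomedullin, passed too but was found only in 12 members of the ligated library and mock 3. Tek, the Tie2 receptor, was lower (-1.12 ± 0.24, edgeR adjusted p = 7.4e-05), as was Ramp3, a partner of the adrenomedullin receptor (-2.21 ± 0.27, edgeR adjusted p = 1.6e-12).

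Genes of collecting vessels and valves were mixed: 7 of 21 tested were higher and 4 lower (median 0.33). Foxc2, the valve factor, read 74.7, 13.7, 13.9 and 31.4 CPM against 0.238 to 1.3 CPM and was held by 11, 1, 1 and 2 members per library (5.68 ± 0.80, edgeR adjusted p = 9.6e-10). Celsr1, a planar polarity cadherin of valve cells, was higher by 6.59 ± 0.79 (log2, edgeR adjusted p = 1.2e-12). Nfatc1, a partner of Foxc2, read 263, 41.2, 249 and 126 CPM against 24.7 to 25.7 CPM and was higher by 2.61 ± 0.32 (edgeR adjusted p = 1.5e-12). The flow-responsive factors Klf2 and Klf4 were lower, by -1.11 ± 0.21 and -0.88 ± 0.23 (edgeR adjusted p = 7.3e-06 and 0.0028).

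Of 10 tested genes of initial capillaries and immune contact, 7 were higher and 1, Cd200, was lower (median 1.41). Mrc1, the mannose receptor CD206, read 78, 124, 360 and 78.5 CPM and at most 0.14 CPM in blood endothelium (10.09 ± 0.70, edgeR adjusted p = 5e-30). Mrc1 is also a macrophage gene; 35.9% of members, 0.0381% of blood endothelial cells and 0.0496% of lymphocytes held it. Summed macrophage and monocyte markers, among them Mrc1, came to 49, 11, 26 and 5 UMIs in the members.

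Leukocyte traffic genes included 5 higher and 8 lower of 29 (median 0.14). Ackr2, the decoy receptor that clears inflammatory chemokines, read 42.2, 288, 55.4 and 47.1 CPM against at most 0.715 CPM. Il7, the lymphocyte survival cytokine, read 84.5, 96.1, 346 and 188 CPM against 1.03 to 1.47 CPM. Both were higher in all libraries, by 7.58 ± 0.69 and 6.68 ± 0.45 (edgeR adjusted p = 3.1e-20 and 4.4e-31). Cxcl12 was lower, at 185, 1044, 152 and 267 CPM against 1251, 4753, 1563 and 1647 CPM (-2.87 ± 0.21, edgeR adjusted p = 3.2e-28). Cxcl10 also passed as higher, but 76 of its 79 UMIs came from 1 mock 3 cell, and over cells with at least 8 rule-gene UMIs it was lower (-2.39 ± 0.85, edgeR adjusted p = 0.036).

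Genes of antigen presentation were lower as a group: 15 of 24 were lower and none higher, with a median of -0.96. H2-K1, a class I heavy chain, read 1111, 1167, 928 and 1821 CPM in the members against 2335, 1741, 2353 and 2343 CPM in blood endothelium. H2-D1 read 1329, 1277, 1759 and 2150 CPM against 2379, 1979, 3324 and 3176 CPM, and B2m, the shared light chain, 1046, 1456, 1150 and 1695 CPM against 1931 to 2415 CPM. In each library the member sum was the lower one, by -1.04 ± 0.18, -0.95 ± 0.18 and -0.94 ± 0.18 (edgeR adjusted p = 1.2e-06, 5.2e-06 and 1.2e-05). Over cells with at least 8 rule-gene UMIs 19 of 24 were lower and the median was -1.85. Class I genes of the H2-Q and H2-T families are near copies of each other, so reads may be split among them.

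Interferon-stimulated genes ran the same way, with 12 of 37 lower and 2 higher (median -0.65), and 23 lower and 1 higher over cells with at least 8 rule-gene UMIs (median -1.36). Ly6e was lower by -1.19 ± 0.19 and Psmb8, an immunoproteasome subunit, by -1.40 ± 0.23 (edgeR adjusted p = 4.9e-08 and 1.9e-07). Ifi27l2a went the other way, at 1264, 577, 1385 and 424 CPM against 98.5, 18.9, 33.1 and 40.5 CPM. The difference was 4.15 ± 0.24 (log2, edgeR adjusted p = 5.9e-39), and no library of one cell type reached the other.

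Junction genes differed in both directions, 2 higher and 7 lower of 21 (median -0.16). Cldn5, the endothelial tight junction claudin, read 1618, 1195, 1704 and 785 CPM in the members and 149, 70.3, 105 and 119 CPM in blood endothelium. It was higher by 3.38 ± 0.21, and Nectin2, an adhesion molecule, by 2.44 ± 0.33 (edgeR adjusted p = 4e-34 and 1.7e-10). Esam, an endothelial adhesion molecule, read 195, 288, 125 and 235 CPM against 652 to 734 CPM and was lower (-1.95 ± 0.23, edgeR adjusted p = 3.8e-13). Members thus held more Cldn5 and less Esam than blood endothelium in every library.

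Of 38 endothelial transcription factors, 6 were higher (Nr2f2, Foxc2, Foxp2, Tbx1, Maf and Nfatc1) and 14 lower (median -0.35). Maf read 403, 2005, 693 and 267 CPM against 113, 54.6, 36.9 and 35.8 CPM, a difference of 3.37 ± 0.26 (edgeR adjusted p = 2.2e-26). Id3, a target of BMP signalling, was lower at 581, 810, 97 and 235 CPM against 1411 to 1874 CPM (-2.22 ± 0.22, edgeR adjusted p = 3.7e-17). Among 14 Notch genes, Notch2 was higher (3.07 ± 0.64, edgeR adjusted p = 6.7e-05) and 5 were lower, Notch4 by -2.43 ± 0.40 (edgeR adjusted p = 2.2e-07; list median -0.72).

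BMP and TGF-beta genes were 5 higher and 8 lower of 25 (median -0.10). Smad1, a BMP signal carrier, was higher by 2.26 ± 0.23 and Tgfbr2, the type II TGF-beta receptor, by 1.37 ± 0.22 (edgeR adjusted p = 2.7e-16 and 7.5e-08). Eng, the co-receptor endoglin, was lower by -1.37 ± 0.21 (edgeR adjusted p = 1.4e-08). Of 27 lipid genes 2 were higher and 8 lower (median -0.55). The cholesterol exporter Abca1 was higher by 1.98 ± 0.24, whereas Cd36 and Gpihbp1, which take up fatty acids and hold lipoprotein lipase in capillaries, were lower by -2.53 ± 0.27 and -1.69 ± 0.21 (edgeR adjusted p = 9.1e-13, 7.6e-16 and 1.3e-11). Against the venous endothelium described below, Gpihbp1 was instead called higher over all members, though not over cells with at least 8 rule-gene UMIs.

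Matrix and basement membrane genes were 11 higher and 10 lower of 33 (median -0.04). Timp2, a metalloproteinase inhibitor, read 750, 1099, 748 and 392 CPM against 76.8, 27.6, 25.7 and 25.2 CPM (4.14 ± 0.24, edgeR adjusted p = 1.7e-38). Col4a1, a chain of basement membrane collagen, read 1445, 1552, 374 and 471 CPM against 1390 to 2582 CPM and was lower (-1.41 ± 0.20, edgeR adjusted p = 6e-10). Igfbp7 was lower as well, by -2.18 ± 0.19 (edgeR adjusted p = 3.3e-22). Immediate early and stress genes were lower in 12 of 27 and higher in none (median -0.65), among them Hspb1, a small heat shock protein, by -1.68 ± 0.21 (edgeR adjusted p = 4.9e-12). Cell cycle genes were higher in 5 of 15 (median 0.43). Of these, Cenpf, Nusap1, Top2a and Mki67 were held by 1 to 3 ligated members, and without the ligated library they did not pass (edgeR adjusted p between 0.67 and 0.99). None of 22 ribosomal protein genes passed in either direction (median -0.16).

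**Figure D3:**
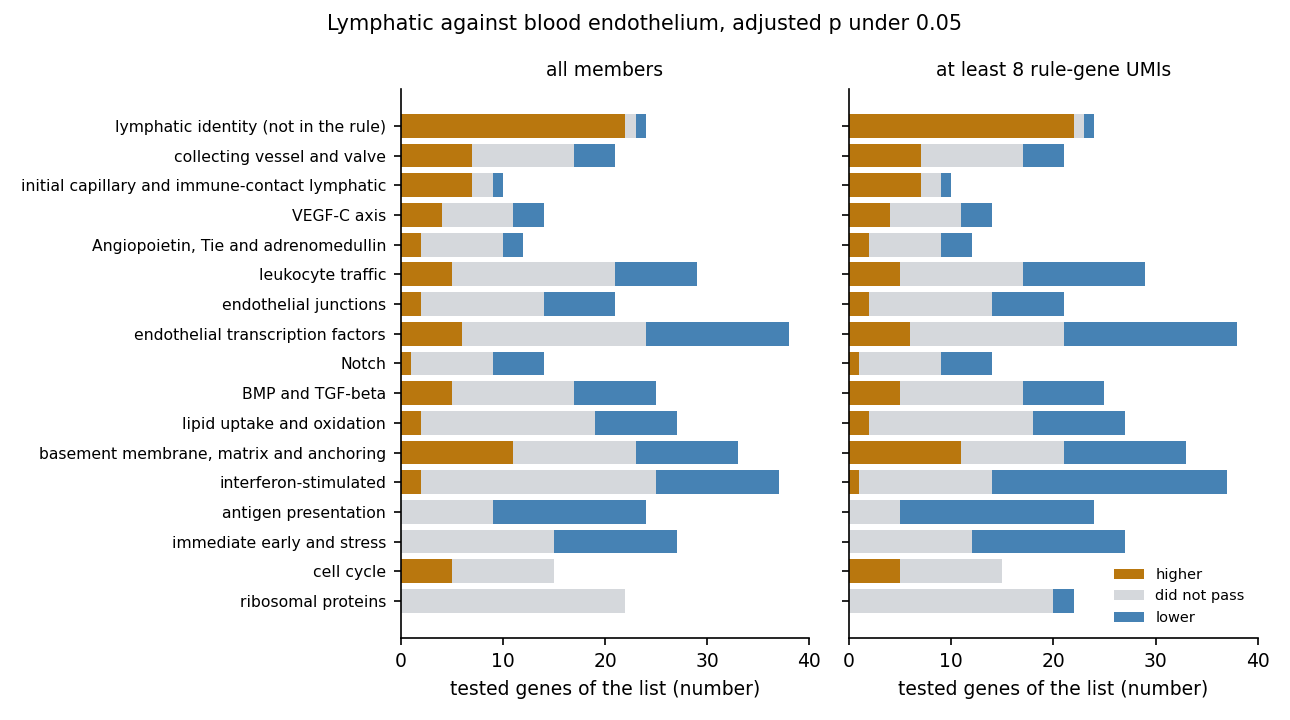
Bars show, for each gene list, how many tested genes were higher, lower or did not pass in lymphatic against blood endothelium, for all members on the left and for cells with at least 8 rule-gene UMIs on the right. Lymphatic identity genes were higher in 22 of 24 in both panels, and antigen presentation genes were lower in 15 of 24 and 19 of 24.

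Venous endothelium, the blood vessel type most like lymphatic endothelium, was taken as the 389 blood endothelial cells with at least 3 UMIs over Ackr1, Selp and Vwf, of them 1 or more of Ackr1 or Selp. Of 4783 genes, 303 (6.33%) were higher and 316 (6.61%) lower in the members by edgeR. Over cells with at least 8 rule-gene UMIs, 340 (7.63%) were higher and 447 (10.0%) lower of 4457. The all-gene median was -0.01 over all members and -0.04 over those cells, and list counts against veins stand beside these values. The higher genes of that stricter set shared 277 with the comparison against all blood endothelium, 41.7% of that comparison's higher genes and 81.5% of the venous one's; both comparisons share the same lymphatic cells, and the venous cells are among the blood endothelial ones.

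Some features that separated members from blood endothelium as a whole were shared with veins. Nr2f2 read 310, 427, 357 and 308 CPM in venous cells against 406, 838, 748 and 298 CPM in the members, and Nrp2 505, 461, 516 and 438 CPM against 442, 563, 790 and 235 CPM. The groups overlapped for both genes, and neither passed over all members (0.56 ± 0.23 and -0.07 ± 0.24 on the log2 scale, edgeR adjusted p = 0.15 and 0.94). Nr2f2 passed over cells with at least 8 rule-gene UMIs (0.78 ± 0.22, edgeR adjusted p = 0.021). Of 23 identity genes tested, 17 were higher than in veins and none lower, with Reln at 10.33 ± 0.46, Pard6g, a polarity protein, at 7.16 ± 0.31 and Cp, the ferroxidase ceruloplasmin, at 3.85 ± 0.28 (edgeR adjusted p = 2.2e-09, 2.2e-09 and 3.2e-07).

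Of 20 junction genes tested against veins, 5 were higher (Cldn5, Jup, Gja1, Gja4 and Nectin2) and 3 lower (Esam, Jam2 and Robo4), and 5 and 5 of 20 over cells with at least 8 rule-gene UMIs. Gja4 (connexin 37) read 201, 96.1, 166 and 78.5 CPM in the members and 5.47, 34, 13.8 and 7.77 CPM in venous cells, Gja1 (connexin 43) 263, 247, 166 and 78.5 CPM against 32.2 to 58.3 CPM. Cldn5 read at most 110 CPM in venous cells. The differences were 3.39 ± 0.46, 2.05 ± 0.28 and 6.17 ± 0.62 (log2, edgeR adjusted p = 0.00011, 0.00012 and 9.2e-06), whereas against all blood endothelium Gja4 and Gja1 did not pass (adjusted p = 0.95 and 0.48 by edgeR). Of 13 collecting vessel and valve genes tested against veins, 6 were higher and none lower.

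Of 19 leukocyte traffic genes tested against veins, 5 were higher (Ackr2, Ackr3, Il7, Mrc1 and Stab1) and 6 lower (Cx3cl1, Icam1, Vcam1, Cd200, Jam2 and Sele), with a median of -0.22. The adhesion genes Icam1, Vcam1 and Sele were picked from the lower ones after their values were seen. Icam1 read 65, 27.5, 27.7 and 15.7 CPM against 119 to 234 CPM, Vcam1 13, 0, 0 and 157 CPM against 85.7 to 423 CPM, and Sele was found in 1 member. Their differences were -2.01 ± 0.36, -2.63 ± 0.61 and -3.26 ± 0.70 (edgeR adjusted p = 0.0011, 0.0086 and 0.0049). All Vcam1 UMIs of mock 3 came from 1 cell. Antigen presentation genes were lower in 7 of 19 over all members (median -0.64) and in 16 of 18 over cells with at least 8 rule-gene UMIs (median -1.27), and ribosomal protein genes were lower in 8 of 22 (median -0.52).

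The share of lymphatic cells was larger in the ligated library. Members made up 0.263% of its cells (35 of 13304; exact 95% binomial interval 0.183% to 0.366%). In mock 1, 2 and 3 they made up 0.131%, 0.119% and 0.0945%, a mean of 0.115% ± 0.0185 (SD, n = 3). That of the ligated library was 2.29 times the mock mean and above all 3 mock values, but its interval overlapped those of mock 1 (0.0480% to 0.284%) and mock 2 (0.0594% to 0.213%). Intervals cover counting error only. With 1 library against 3 an exact permutation test cannot give a p below 0.25, so none was run.

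Blood endothelium moved the other way, from 50.0%, 57.2% and 57.9% of cells in the mock libraries to 25.9% in the ligated library. As a share of lymphatic plus blood endothelium, members were 1.01% in the ligated library and 0.210% ± 0.0489 (SD, n = 3) in the mock libraries, a ratio of 4.79. Core members gave 0.195% of all cells against a mock mean of 0.0825%, a ratio of 2.37. A looser rule of at least 2 rule-gene UMIs gave 0.361% against 0.219% ± 0.153, and over mock 1 alone that ratio was 0.92. In shares of captured cells, more lymphatic cells and fewer cells of other types cannot be told apart, and beads had removed epithelial and red cells first.

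**Figure D4:**
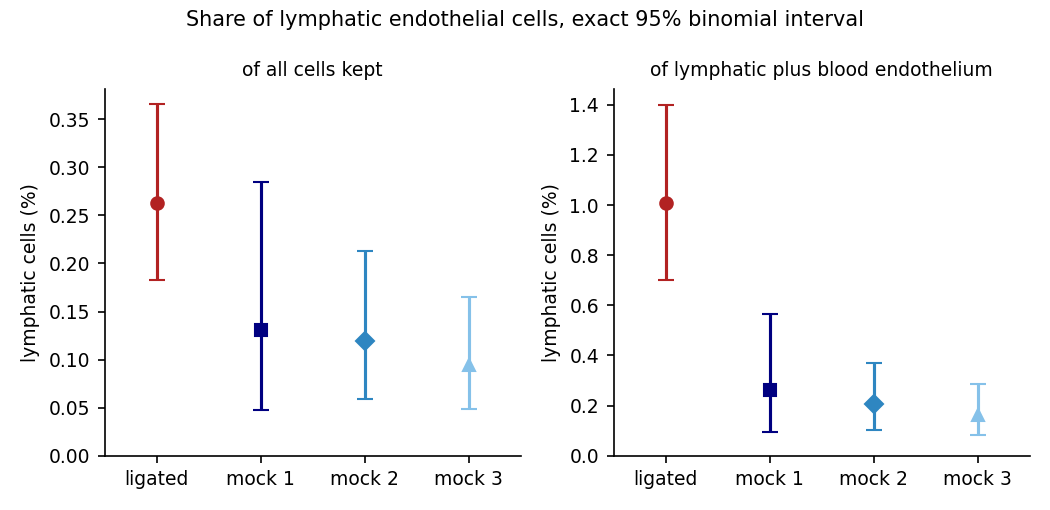
Points give the percentage of lymphatic cells in each library with exact 95% binomial intervals, over all cells kept on the left and over lymphatic plus blood endothelium on the right, both axes from 0. The ligated library sits at 0.263% and 1.01%, above the 3 mock libraries in both panels.

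Gene levels in ligated and mock members were compared without a test, because mock 1 holds under 10 members. Of 3173 genes with at least 20 UMIs in the ligated or the pooled mock sum, 164 (5.17%) were above all 3 mock libraries and at least 2-fold higher. Another 121 (3.81%) were below all 3 and at least 2-fold lower, with 20 CPM added to each level and the mock libraries pooled. Scaling by the trimmed mean of M-values changed this split from 57.5% to 77.8% higher (274 and 78 genes), and moved the median log2 ratio of all genes from 0.06 to 0.25. Setting the ligated library against mock 1 alone, which shares its software version, gave 348 higher and 125 lower, and the pooled mock without mock 2 gave 226 and 103. In the core members 162 of 2114 genes (7.66%) were higher and 112 (5.3%) lower by the same criteria.

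Fibroblast genes were among those with the largest higher ratios of the whole member set. Dcn, decorin, read 893 CPM in the ligated members and 0 in all mock libraries, and Col1a1 354 CPM and 0. Mgp, matrix Gla protein, read 3378 CPM and 0, 0 and 220 CPM. These moved with the pair of ligated members that held 377 and 368 fibroblast marker UMIs, and in the core Dcn read 37.6 CPM, Col1a1 4.7 CPM and Mgp 155 CPM, with 0 in every mock library. Mgp was also higher in blood endothelium of the ligated library, at 2333 CPM against 199 to 249 CPM, and a part of free RNA in its core level was not tested.

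Valve and flow genes were higher in ligated than in mock core members. Of 12 with at least 20 UMIs, 6 were above all mock libraries by at least 2-fold and none below, beside 7.66% and 5.3% of all core genes. The median was 0.98 on the log2 scale, beside 0.08 over all genes of the core. Over all members the counts were 3 of 13 and none, beside 5.17% and 3.81% of all genes (median 0.65, beside 0.06). At least 20 UMIs in the ligated sum alone made a gene count. In the core, Foxc2 and Celsr1 thus entered only through the library where they were high. These counts and medians are partly set by that filter. Foxc2 read 103 CPM in the ligated core and 18.6, 16.4 and 53.7 CPM in the mock core. It was held by 10 of 26 ligated and 4 of 21 mock core cells, a log2 ratio of 1.41 on 22 and 4 UMIs. After thinning each cell to 2000 UMIs, 3 of 22 ligated and 0 of 20 mock core cells held it, which is too few to read.

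Fn1 (chr1:71585520-71653200), fibronectin, whose EIIIA form is laid down in valve leaflets, read 629 CPM in the ligated core and 93, 82 and 483 CPM in the mock core, the nearest mock library being mock 3. The log2 ratio was 1.67, and 18 of 26 ligated against 7 of 21 mock core cells held it. Klf2 read 676 CPM against 279, 279 and 269 CPM, and Klf4 423 CPM against 223, 131 and 53.7 CPM, with log2 ratios of 1.23 and 1.43. Over all members, which include cells rich in blood endothelial transcripts, Klf2 read 620 CPM against 563, 263 and 330 CPM and was only just above mock 1. After thinning to 2000 UMIs, 41.9% of ligated and 48.1% of all mock members held Klf2, and 29.0% and 29.6% held Klf4. Fn1 (41.9% and 18.5%) and Gja4 (22.6% and 14.8%) were held by more ligated members. In the core, Gja4 read 272 CPM against 130, 98.4 and 134 CPM, and Celsr1 98.6 CPM against 37.2, 16.4 and 53.7 CPM on 21 and 5 UMIs.

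Immediate early genes stood higher in the ligated core too: 9 of 15 were above all mock libraries by at least 2-fold and 1, Klf9, below (median 1.12). Over all core genes these shares were 7.66% and 5.3%. Jun, a subunit of AP-1, read 822 CPM against 112, 164 and 242 CPM, and Jund 822 CPM against 279, 230 and 349 CPM. Fos, its partner, read 484 CPM against 0, 16.4 and 53.7 CPM, and Fosb 272 CPM against 0 in all 3. The ligated sum alone could make a gene count here too, so Fos and Fosb entered only through the library where they were high. The 9 of 15 and the median of 1.12 are thus partly set by that filter. Fos was held by 10 of 26 ligated and 2 of 21 mock core cells, and Egr1 by 5 and 2. Over all members the separation was smaller, with 4 of 19 higher and 1 lower (median 0.40), beside 5.17% and 3.81% of all genes. Fos read 500 CPM against 385, 13.9 and 408 CPM there. The median mitochondrial share of core members was 5.20% in the ligated library and 2.52%, 3.34% and 4.85% in the mock libraries; its part in these differences was not tested.

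Cell cycle genes were above all mock libraries by at least 2-fold in 6 of 7 measured genes of the ligated members, with a median of 2.54. Over all genes the share was 5.17%. At least 20 UMIs in the ligated sum alone made a gene measured, so Cenpf entered only through the library where it was high. The 6 of 7 and the median are thus partly set by that filter. For several genes the higher level rested on single cells: Cenpf had 49 UMIs and Mki67 18 UMIs, each in 1 ligated cell and in no mock cell, and Ube2c 34 UMIs in 1 cell. Stmn1, a microtubule regulator, and Hmgb2, a chromatin protein, were found in more cells. Stmn1 read 364 CPM against 13.7, 41.6 and 47.1 CPM and was held by 19 of 35 ligated and 5 of 29 mock members. Hmgb2 read 263 CPM against 13.7, 41.6 and 31.4 CPM, in 20 and 5 members. After thinning each cell to 2000 UMIs, Stmn1 was held by 8 of 31 ligated and 2 of 27 mock members (25.8% and 7.41%), and Hmgb2 by 5 and 2 (16.1% and 7.41%), with mock 1 at 16.7% for both genes.

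Other genes above the mock range were spread over many ligated cells. Serpine2, a protease inhibitor of thrombin and plasminogen activators, read 344 CPM against 54.9, 27.7 and 0 CPM, and was held by 19 of 35 ligated and 3 of 29 mock members. Lgals1, the secreted lectin galectin 1, read 331 CPM against 0, 13.9 and 15.7 CPM. Nudt4, a diphosphoinositol polyphosphate hydrolase, read 806 CPM against 192, 208 and 141 CPM. Their log2 ratios were 2.90, 3.57 and 2.03 over all members and 2.88, 3.25 and 2.60 in the core. Angpt2 read 185 CPM against 27.5, 97 and 94.2 CPM, the only one of 24 identity genes above the mock range by 2-fold (log2 ratio 1.16). Reln, Sox18 and Kalrn were below it by 2-fold. Over all genes these shares were 5.17% and 3.81%. Of the 24, 3 lay above and 6 below the mock range (median -0.19), beside 26.6% and 15.4% of all genes. Lamb1 and Sparc, basement membrane proteins, were also above the mock range in the core, at 268 and 146 CPM against at most 161 and 49.2 CPM.

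Of 9 initial capillary genes measured, Reln and Mrc1 were below all mock libraries by at least 2-fold and none was above by that much, with a median of -0.21 and 2 genes above and 2 below the mock range. Over all genes, 3.81% were lower and 5.17% higher by at least 2-fold, and 26.6% lay above and 15.4% below the mock range. Reln read 529 CPM against 1579, 1662 and 910 CPM, a log2 ratio of -1.37 (-1.26 in the core, 752 CPM against 2138, 1706 and 1558 CPM). Lyve1 was held by 16 of 35 ligated and 21 of 29 mock members (45.7% and 72.4%; 38.7% and 70.4% after thinning to 2000 UMIs), with a log2 ratio of -1.14 (not tested, and a rule gene). Mrc1 read 78 CPM against 124, 360 and 78.5 CPM, practically the level of mock 3. Reln, Mrc1 and Itih5 were the 3 of 8 core genes of this list below all mock libraries by at least 2-fold, and none was above by that much (median -0.42, 2 above and 3 below the mock range). Over all core genes, 5.3% were lower and 7.66% higher by at least 2-fold.

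Of 16 leukocyte traffic genes measured, Ackr2, Il7 and Mrc1 were below all mock libraries by at least 2-fold and Lgals1 was above. In all, 4 lay above and 5 below the mock range (median -0.25), beside 26.6% and 15.4% of all genes. In the core, 4 of 12 lay above and 4 below (median -0.04), beside 29.4% and 16.1%. Il7 read 84.5 CPM against 96.1, 346 and 188 CPM and Ackr2 42.2 CPM against 288, 55.4 and 47.1 CPM. Both were close to 1 mock library, mock 1 for Il7 and mock 3 for Ackr2. Aqp1, the water channel, read 205 CPM against 371, 499 and 392 CPM, and 141 CPM against 502, 541 and 457 CPM in the core. Igfbp5 read 325 CPM against 577, 900 and 691 CPM, and Timp3 1562 CPM against 5891, 2632 and 1789 CPM. Igfbp5 was held by 13 of 35 ligated and 9 of 29 mock members, a larger share of cells in the ligated library (37.1% and 31.0%).

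**Figure D5:**
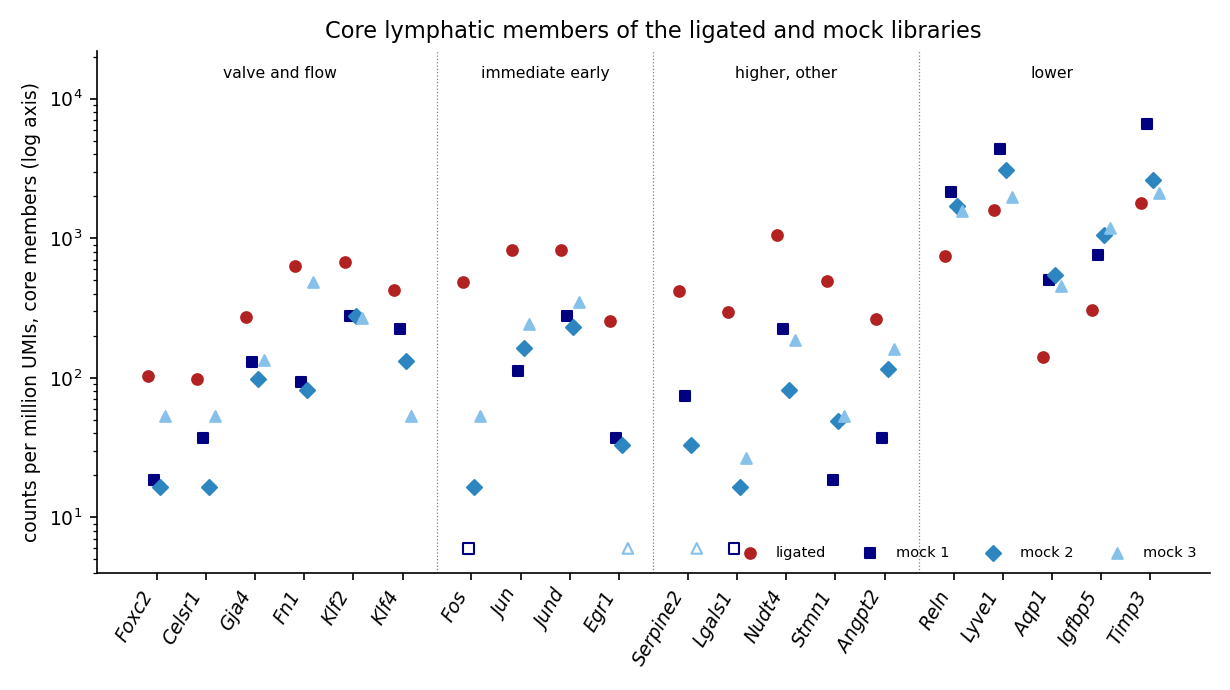
Points give CPM on a log axis in the summed core members of each library, with genes grouped by role and open symbols at the bottom standing for 0 UMIs. Fos, Jun, Serpine2 and Stmn1 are highest in the ligated library, and Reln, Lyve1, Aqp1 and Igfbp5 lowest.

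Several of the 12 genes with the largest negative ratios split by software version. Cmss1 read 13, 13.7, 2410 and 1805 CPM, Prkg1 9.74, 13.7, 720 and 769 CPM and Sox18 78, 82.4, 582 and 518 CPM across the 4 libraries. The ligated library lay close to mock 1, with log2 ratios to mock 1 alone of -0.03, -0.18 and -0.06, while the pooled ratios were -5.42, -4.10 and -2.06. In blood endothelium Cmss1 split in the same way, at 14.9, 14.5, 2288 and 1781 CPM. For these genes surgery and software version cannot be told apart beyond the mock 1 comparison. Tppp3 was an exception, at 29.2, 796, 208 and 47.1 CPM, with 58 of its UMIs in mock 1, and the globin gene Hba-a1 another, at 9.74, 893, 27.7 and 62.8 CPM, its mock 1 level moving with the member that held 160 erythroid marker UMIs.

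The remaining lists are given by their counts past 2-fold, first over all members. Over all genes the shares were 5.17% higher and 3.81% lower in all members, and 7.66% and 5.3% in the core. Small counts near those shares are not read as a result about a list. VEGF-C genes had none in either direction of 11, Notch genes none of 3, junction genes none of 20 and ribosomal protein genes none of 22. Endothelial transcription factors had 3 higher, among them Foxc2 and Hhex, and 1 lower (Sox18) of 27, BMP and TGF-beta genes 2 higher (Id2 and Tgfb2) of 14 and lipid genes 2 higher (Lpl and Scarb1) of 12. Fabp4, a fatty acid carrier of capillaries, turned with the choice of cells, at 1007, 4628, 222 and 4300 CPM over all members (log2 ratio -1.56) and 305, 0, 16.4 and 26.9 CPM in the core (3.29). Interferon-stimulated genes had none higher and 2 lower of 24, and antigen presentation genes none higher and 3 lower of 13. Matrix genes had 7 higher and 2 lower of 26, of which Lamb1, Fn1, Sparc and Mgp were also higher in the core, and the angiopoietin list had Angpt2 alone of 9. In the core, junction genes had 2 higher (Cdh13 and Gja4) of 15, transcription factors 6 higher and 1 lower of 24, and BMP and TGF-beta genes 3 higher of 12. Interferon-stimulated genes had 1 higher and 1 lower of 12 there, antigen presentation genes 1 lower of 8 and matrix genes 4 higher and 2 lower of 23. VEGF-C, Notch and ribosomal protein genes had none of 9, 2 and 22 in the core.

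A type-by-surgery term in the same fit tested whether the ligated library differed from the mock libraries by different amounts in lymphatic and blood endothelium. It passed for 14 genes in the higher direction (0.123%) and 17 in the lower (0.149%) of 11396, and for 35 (0.309%) and 17 (0.15%) of 11344 over cells with at least 8 rule-gene UMIs. The ligated arm is 1 library, the spread rests on the 3 mock libraries, and the mock 1 sum holds 6 members (4 in the stricter set), so these p-values set this 1 library against 3 and do not show a change with ligation in general. With DESeq2, 2 and 3 genes passed, and 20 of the 24 genes named by edgeR did not. The all-gene median of the term was 0.24 and became 0.05 with DESeq2 size factors, a shift of -0.19, and that of the comparison with blood endothelium went from -0.20 to -0.09.

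Stmn1 and Hmgb2 were among the genes with a higher term. In blood endothelium Stmn1 read 54.5, 77.7, 113 and 126 CPM and Hmgb2 80, 101, 132 and 143 CPM, lowest in the ligated library, where the members were highest. The terms were 4.63 ± 0.61 and 4.08 ± 0.64 (log2, edgeR adjusted p = 1.4e-10 and 2.9e-07). With DESeq2 the Hmgb2 term was 3.89 and did not pass (adjusted p = 0.073). Nudt4 read 122, 118, 127 and 123 CPM in blood endothelium and gave a term of 2.40 ± 0.48 (edgeR adjusted p = 0.00051). The Nudt4 term was 2.12 (edgeR adjusted p = 0.21) once members with at least 4 UMIs of other-class markers were left out. Other-class markers are the fibroblast, mural, epithelial, glial or erythroid ones, and blood endothelial cells were not filtered by them. Fn1 read 38.7, 52, 40.5 and 48.3 CPM in blood endothelium, with a term of 2.29 ± 0.51 (edgeR adjusted p = 0.0044), which did not pass without mock 1 (1.81, 0.39), mock 2 (2.05, 0.11) or cells of other marker classes (2.09, 0.32).

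Over cells with at least 8 rule-gene UMIs, 6 of 27 immediate early and stress genes passed as higher: Fos, Fosb, Jun, Egr1, Dusp1 and Sgk1. Fos read 585, 586, 476 and 455 CPM in blood endothelium, nearly level across surgery, and its term was 4.65 ± 0.71 (edgeR adjusted p = 6.8e-08). For Jun, at 1187, 1041, 843 and 730 CPM in blood endothelium, the term was 1.98 ± 0.49 (edgeR adjusted p = 0.014). Over all members Sgk1, a glucocorticoid-induced kinase, was the list's only gene to pass, with 253, 343, 55.4 and 62.8 CPM in members and 228, 952, 319 and 317 CPM in blood endothelium (2.30 ± 0.52, edgeR adjusted p = 0.0044; 2.07 and 0.050 without mock 2, 1.87 and 0.97 without cells of other marker classes).

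In the lower direction Aqp1 stood out. It read 697 CPM in blood endothelium of the ligated library and 116, 79.9 and 83.2 CPM in the mock libraries, while members of the ligated library read lowest. Its term was -3.72 ± 0.49 (edgeR adjusted p = 1.4e-10), and -4.54 ± 0.50 over cells with at least 8 rule-gene UMIs (edgeR adjusted p = 2.1e-15). Igfbp5 (-2.40 ± 0.46) and Igfbp4 (-2.38), insulin-like growth factor binding proteins, passed as well (edgeR adjusted p = 0.00023 and 0.00045), Igfbp4 not without mock 2 (adjusted p = 0.11). Igfbp5 did not pass by edgeR without cells of other marker classes (-2.20, adjusted p = 0.085), nor with DESeq2 (-2.59, adjusted p = 0.38).

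Among the 24 identity genes, 6 had a lower term: Pdpn, Reln, Thy1, Maf, Fxyd6 and Sema3d. For these the blood endothelial level was largest in the ligated library. It was low for genes such as Reln, at 1.37 CPM against 0.0794 to 0.455 CPM, and Fxyd6, at 28.5 CPM against 1.72 to 3.18 CPM, but more than a trace for Maf. The share of free RNA in those low levels was not tested. Reln gave -3.56 ± 0.62 and Fxyd6 -2.93 (edgeR adjusted p = 1.1e-05 and 6.4e-07), while Fxyd6 in the members themselves read 903, 618, 942 and 628 CPM, inside the mock range for the ligated library. Pdpn (-3.10 ± 0.69, edgeR adjusted p = 0.0039) did not pass without mock 1 (0.067) or mock 2 (0.31), Thy1 (-2.33 ± 0.53, 0.0047) not without mock 2 (0.17) and Maf (-2.18 ± 0.46, 0.0017) not without mock 1 (0.67).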

How the data were processed

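UMI counts per gene and cell were deposited by the authors as filtered matrices for 4 libraries, mapped to mm10. The submitters' processing notes name Cell Ranger 7.0.1, whereas per the file headers version 6.0.1 wrote the ligated and mock 1 matrices and 7.0.0 those of mock 2 and 3; the conflict was not resolved, and how intronic reads were handled is nowhere stated in the sources used here. Features were joined by ID over the 30406 IDs common to all libraries; UMIs outside them were 0.456%, 0.0538%, 0.449% and 0.451% of the ligated library and mock 1, 2 and 3. No per-sample column was left out (0).

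Counts of a cell type were summed per library. Tests used edgeR 4.0.16 (quasi-likelihood, TMM scaling, filterByExpr, library as a block, Benjamini-Hochberg at 0.05) in R 4.3.3, checked on simulated data. The block pairs sums of different cell types from the same library. DESeq2 1.42.0 was an alternative. CPM are UMIs per 1000000 UMIs of a sum, with exact 95% Poisson or binomial intervals. Shares of cells with a UMI were also computed after thinning each cell to 2000 UMIs. Gene positions are from GENCODE for GRCm38/mm10. Python 3.11.15, numpy 2.4.6, scipy 1.17.1, pandas 2.3.3 and matplotlib 3.10.9 were used.

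No doublet caller was run. The Ptprc and C1q limits of the rule, the core members and an alternative without some members stand in for one. That alternative leaves out members holding at least 4 UMIs of the fibroblast, mural, epithelial, glial or erythroid markers. Blood and venous endothelial cells are not filtered in it. The core was chosen after seeing the data. Genes named are the rule genes, the 12 per direction with the largest ratio or difference (at least 20 UMIs, ligated outside the mock range or the same sign in all libraries), up to 12 per direction past the type-by-surgery term, and members of the gene lists, tested members first; further list members were picked for the text after their values were seen. The members, lists and tests were chosen with earlier results of these data known.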

Additional observations from a re-analysis of the deposited data

Results flagged for a closer look

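The ligated library differed from the mock libraries by different amounts in lymphatic and blood endothelium, by the type-by-surgery term (edgeR quasi-likelihood test, Benjamini-Hochberg adjusted p) for 24 of the genes named. The ligated arm is 1 library and the mock 1 sum holds 6 members, so the p-values set that library against the spread of 3. With DESeq2, 20 of the 24 did not pass, among them Hmgb2 (adjusted p = 0.073), Fxyd6 (0.076), Reln (0.38) and Igfbp5 (0.38).

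In the higher direction 12 are named. The fibroblast genes Dcn (adjusted p = 2.9e-13), Gsn (1.7e-07), Mgp (0.0010), Col3a1 (0.0014), Cxcl14 (0.0021) and Lum (0.012) moved with the 2 ligated members that held 377 and 368 fibroblast marker UMIs. None of the 6 passed once members with at least 4 UMIs of other-class markers were left out (edgeR adjusted p = 1 for each). Blood endothelial cells were not filtered in that alternative. Without mock 1 or mock 2, Mgp (adjusted p = 0.73 and 0.17), Cxcl14 (0.21 and 0.070) and Lum (0.18 and 0.17) did not pass either by edgeR, nor did Lum without mock 3 (0.052). Stmn1 (1.4e-10), Hmgb2 (2.9e-07), Nudt4 (0.00051), Fn1 (0.0044) and Sgk1 (0.0044) were spread over 19 to 21 ligated members each, by edgeR. Fn1 did not pass without mock 1 (0.39) or mock 2 (0.11), nor Sgk1 without mock 2 (0.050), by edgeR. Without cells of other marker classes, Nudt4 (0.21), Fn1 (0.32) and Sgk1 (0.97) did not pass by edgeR. Cenpf (0.00058) rested on 1 ligated member, and its edgeR adjusted p was 0.13 without mock 1.

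In the lower direction Aqp1 (edgeR adjusted p = 1.4e-10) was higher in the blood endothelium of the ligated library and lower in its lymphatic members. Igfbp5 (0.00023) read 325 CPM in ligated members against 577, 900 and 691 CPM in the mock libraries. Reln (1.1e-05), Fxyd6 (6.4e-07), Lcn2 (0.00012), Igfbp4 (0.00045), Maf (0.0017), Abi3bp (0.0021), Pdpn (0.0039) and Thy1 (0.0047) each had their highest blood endothelial level in the ligated library, by edgeR. Leaving out mock 1 ended the call for Maf (edgeR adjusted p = 0.67), Abi3bp (0.89) and Pdpn (0.067), and leaving out mock 2 ended it for Igfbp4 (0.11), Pdpn (0.31) and Thy1 (0.17). Without cells of other marker classes, Igfbp5 (0.085), Tppp3 (0.60), Abi3bp (0.74) and Maf (1) did not pass by edgeR. Cxcl10 (1.5e-08) rested on 76 UMIs of 1 mock 3 cell, without which library its edgeR adjusted p was 1, and Tppp3 (0.018) on mock 1, without which its edgeR adjusted p was 1.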

How the results depend on the processing

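For ligated against mock members, the 164 higher genes became 274 with TMM scaling, 371 with no low count filter, 348 against mock 1 alone and 222 to 265 when a mock library was left out (265 without mock 1); the 121 lower genes became 78 with TMM scaling, 262 with no filter and 103 to 168 with a library left out. No paired analysis was possible there, because the labels pair no ligated library with a mock library. The DESeq2 test and the software version term were not run for ligated against mock members, since mock 1 held too few members for a test. Against blood endothelium, the 768 lower genes became 358 with DESeq2 and 405 with no replicate block; 23 of the named genes lost or turned their call with no replicate block, and the number of higher genes stayed within 1.5 times of 593 under each alternative. Against venous endothelium, the 303 higher and 316 lower genes became 474 and 559 with no filter, and ranged from 200 (without ligated) to 294 and from 171 (without ligated) to 327 with a library left out, the lower ones being 209 without mock 2 and 200 with no replicate block. The 14 higher and 17 lower type-by-surgery genes became 2 and 3 with DESeq2, 7 to 19 and 9 to 25 with a mock library left out (7 and 9 without mock 1), and 4 and 10 without cells of other marker classes; the higher ones became 8 without mock 2 and 35 over cells with at least 8 rule-gene UMIs. The share ratio of 2.29 became 1.65 with at least 2 rule-gene UMIs, 4.79 over lymphatic plus blood endothelium and, as an alternative chosen after seeing the data, 4.97 for core members over core plus blood endothelium. Signs turned for Mgp against blood endothelium with no replicate block (0.29), for Cenpf (-8.37 without the ligated library, up to 4.41 without a mock library), Nusap1 (-8.27, 3.33), Mki67 (-8.60, 2.58) and Top2a (-0.14, 3.09) likewise, for the terms of Mgp (-1.97) and Lum (-1.64) without cells of other marker classes, and for the term of Cxcl10 without mock 3 (6.97; -7.84 without mock 2) and over cells with at least 8 rule-gene UMIs (7.51). Lum had a ligated to mock ratio of 0 (log2) in the core and without cells of other marker classes. In each of these cases the cause was not tested. With 6 to 12 members a mock library, genes under about 20 UMIs cannot be compared, and a count of 0 in all members allows up to 5.81 CPM.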
